A study of Acipenser ruthenus with 15 samples.

Results

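The transcripts described here are those whose level declined step by step from the animal to the vegetal end of sterlet eggs without being confined to the animal end. The sterlet, Acipenser ruthenus, is a small sturgeon. The samples came from 3 eggs numbered 10, 18 and 20, which the labels call oocytes of Stage 1, and the labels name no treatment or genetic change. Each egg was embedded and cut with a cryostat into 5 segments along its axis, section A at the animal end through section E at the vegetal end. Each segment gave 1 library of total RNA depleted of ribosomal RNA, so there were 15 libraries and n = 3 in each section. The labels call the eggs biological replicates without naming the females. The main section tests allow each egg its own level, so their p-values measure how section differences vary between these eggs, perhaps not between animals. The egg tests are judged against the spread left within eggs, with 1 library per section.

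The members were chosen by measured values of these same libraries. Counts were expressed as CPM, the count scaled to a fixed library total, with TMM factors, which assume that most transcripts do not differ between libraries. A member had a mean of at least 20 and below 600 CPM over the 15 libraries and a section mean that was lower at every step from A to E. Sections A and B together held at least 60% and below 75% of the sum of its 5 section means, and section A alone held below 60%. This gave 93 transcripts of 42878 listed. All 93 passed the low-count filter that left 29102 transcripts for testing. Of 9348 transcripts in the same range of mean CPM, 1274 were lower at every step, and the share of A plus B then left the 93.

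An animal egg stores RNA made by the mother that the embryo uses before its own genes are switched on. The axis from the animal to the vegetal pole is a main axis of that store: in the frog Xenopus, cells formed from the animal side give rise mainly to skin and nervous system and cells from the vegetal side mainly to gut. In Xenopus, many stored RNAs are graded with more on the animal side, which holds the nucleus and less yolk, while a smaller group is carried to the vegetal cortex. Sturgeon eggs divide completely at cleavage, as frog eggs do.

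The deposited files give each transcript an assembly ID and no gene name. Of those IDs, 0 matched the table of annotated sterlet genes, so no member can be given a gene, a function, a sequence or a place in the genome here. Library totals ran from 4347026 to 14500611 counts. The members were well covered, with 29 to 1192 counts in the library where each was lowest (median 157) and a median of 9166 counts over all 15 libraries. A CPM value gives a transcript's part of the RNA sequenced from a section, not an amount per section.

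Over the 93 members, section A held a median of 40.7% of the summed level and section B 23.4%. Sections C, D and E held medians of 14.2, 11.1 and 9.43%. The share in A ran from 31.4 to 54.1% and the share in E from 5.76 to 12.5%. Section A held 2.72 to 8.64 times the level of section E, with a median of 4.26. The median member thus kept a measurable level at the vegetal pole, at 30.3 CPM in E against 126 CPM in A. These values chose the members and are a description.

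**Figure D1:**
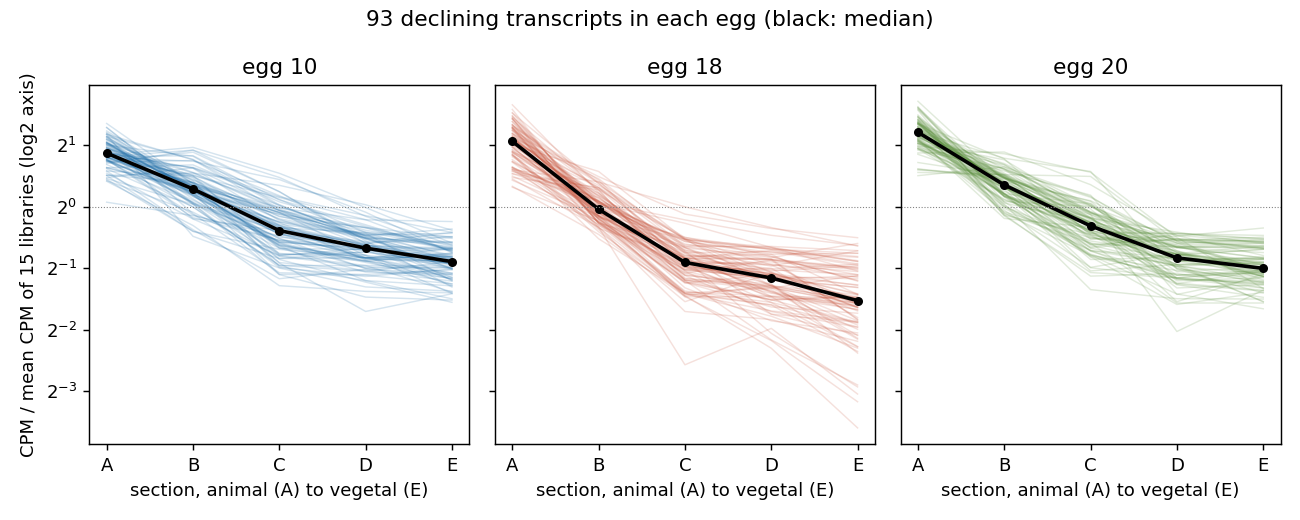
Level of each of the 93 declining transcripts in sections A to E, 1 panel per egg, as CPM divided by the transcript's mean CPM over the 15 libraries on a log2 axis. Thin lines are transcripts and the black line is the median, which runs from above 1 in section A to below 1 in section C in each egg and reaches its lowest value in section E of egg 18.

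Together the members were a small part of the RNA. They took 1.96 ± 0.188% of the counts in section A (SD, n = 3) and 1.12 ± 0.153% in B. Their part was 0.651 ± 0.140% for section C, 0.479 ± 0.0963% for D and 0.403 ± 0.0760% for E. By library, the median member stood at 112, 118 and 148 CPM in section A of eggs 10, 18 and 20. It stood at 86.5, 64.4 and 86.3 CPM in B, then at 56.4, 33.1 and 55.5 CPM in C. In D it stood at 41.5, 31.0 and 33.9 CPM, and in E at 36.0, 23.4 and 31.5 CPM. Egg 18 had the lowest median in sections B to E but not in section A.

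The member with the highest mean level was trinitytrinLocDN54953c2g1t2. In section A it stood at 938, 1034 and 1170 CPM in eggs 10, 18 and 20, and in section B at 574, 468 and 602 CPM. Section C gave 293, 248 and 330 CPM, section D 254, 186 and 273 CPM and section E 210, 157 and 245 CPM. The libraries of section A lay above all of B, and those of B above all of C, while C overlapped D and D overlapped E. Its mean was 1047 ± 117 CPM in A and 204 ± 44.3 CPM in E (SD, n = 3), a ratio of 5.14.

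The next most abundant, trinitytrinLocDN54519c1g1t3, had another form of decline. It stood at 736, 1156 and 1179 CPM in section A of eggs 10, 18 and 20, and at 393, 356 and 423 CPM in B. From there on it was nearly level, with means of 253 ± 46.2 CPM in C, 252 ± 22.1 CPM in D and 233 ± 32.2 CPM in E (SD, n = 3). In egg 18 its level in section C, 203 CPM, was below the 235 CPM of section D. The order of C and D that placed it among the members therefore rests on a difference smaller than the spread between eggs.

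The steepest member was trinitytrinLocGG_844c0g1t1, with 8.64 times the level in A that it had in E. It stood at 763, 758 and 936 CPM in section A of eggs 10, 18 and 20 and at 110, 41.8 and 132 CPM in section E. Between them it stood at 331 ± 45.2 CPM in B, 196 ± 57.9 CPM in C and 121 ± 45.4 CPM in D (SD, n = 3). Egg 18 was close to egg 10 in section A and far below it in E. The next steepest, trinitytrinLocDN54059c0g1t1, had 7.85 times the level in A, at 160, 233 and 238 CPM in A against 32.5, 23.4 and 24.6 CPM in E.

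The shallowest member was trinitytrinLocDN53901c0g4t1, with a ratio of A to E of 2.72. It stood at 283, 224 and 219 CPM in section A of eggs 10, 18 and 20 and at 238, 191 and 242 CPM in B. Sections A and B overlapped, and in egg 20 section B was the higher. Its level then was 132, 93.2 and 145 CPM in C, and 108, 62.0 and 97.5 CPM in E. The next shallowest, trinitytrinLocDN52990c0g1t2, had a ratio of 3.07, at 133, 120 and 130 CPM in A against 61.0, 25.5 and 38.3 CPM in E.

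The member at the median ratio of A to E was trinitytrinLocDN55140c0g1t2. It stood at 200, 182 and 227 CPM in section A, 120, 91.0 and 131 CPM in B and 78.8, 58.4 and 81.4 CPM in C of eggs 10, 18 and 20. In D it stood at 53.8, 43.8 and 62.4 CPM and in E at 57.3, 34.6 and 51.1 CPM. Section A lay wholly above B and B wholly above C, but C overlapped D, D overlapped E, and egg 10 had more in E than in D.

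**Figure D2:**
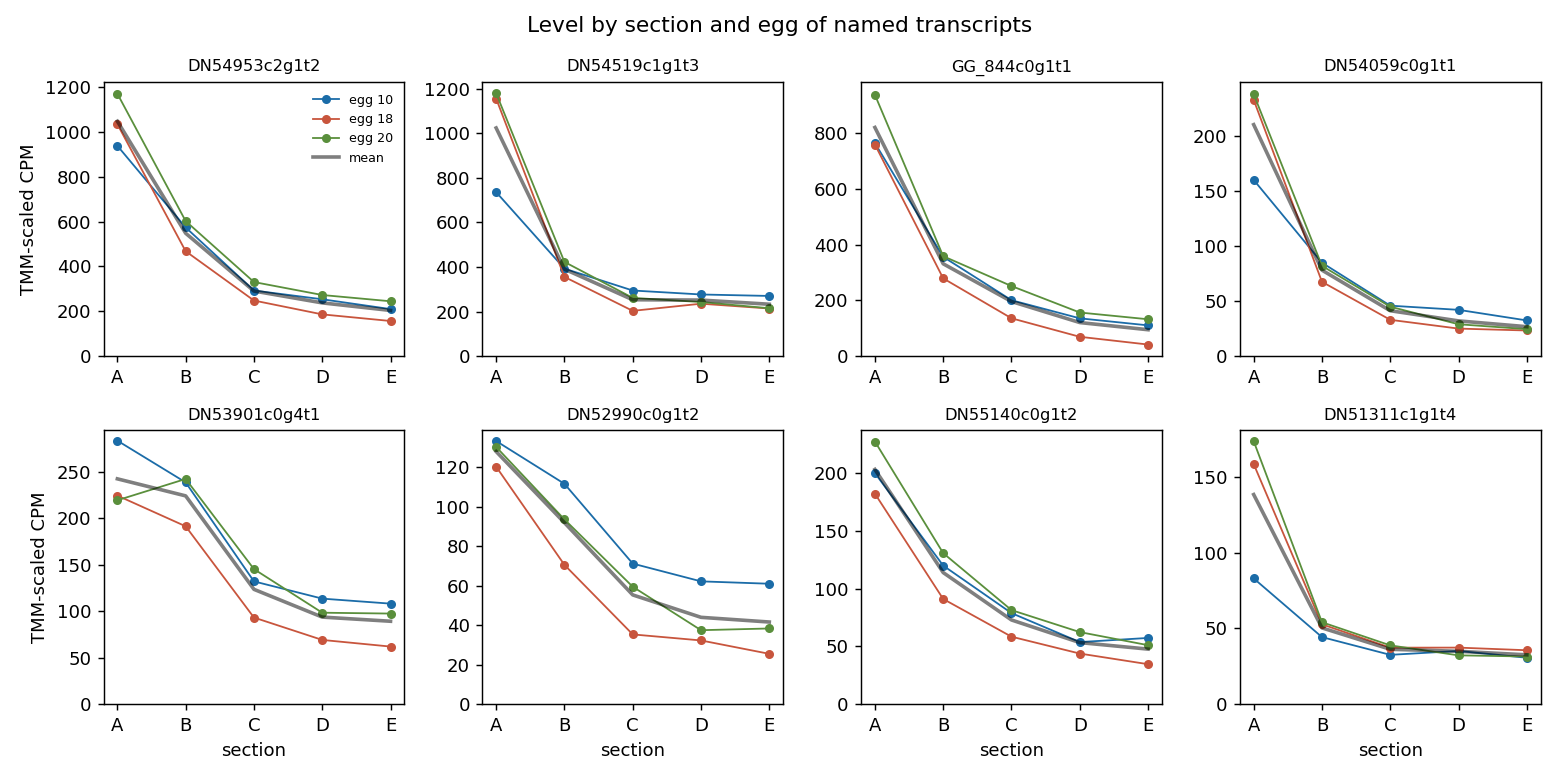
TMM-scaled CPM (linear axis from 0) against section for 8 named members, with IDs shortened to the part after their common start. Points joined by thin lines are the 3 eggs and the thick grey line is their mean. The main difference between panels is how much of the decline lies between A and B, from nearly none in DN53901c0g4t1 to most of it in DN51311c1g1t4.

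The thresholds cut through a continuum. The member nearest the lower limit, trinitytrinLocDN48863c0g1t1, had 60.01% of its summed level in A plus B, and the nearest transcript outside, trinitytrinLocGG_41832c1g1t1, had 59.99%. At the upper limit, trinitytrinLocDN54059c0g1t1 had 74.2% and the nearest transcript outside, trinitytrinLocDN51155c1g1t1, 75.02%. The lowest mean level among members was 20.6 CPM and the highest just below the limit 19.97 CPM. There were 223 transcripts under 20 CPM that met every other condition, 0 at 600 CPM or more and 0 excluded by the limit on section A alone. A further 56 transcripts had the same range of level and of A plus B without being lower at every step.

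With TMM scaling and over the 3 eggs, the median difference was largest from A to B and smaller at each later step. The median log2 difference between adjacent section means was 0.82 from A to B, 0.70 from B to C, 0.37 from C to D and 0.17 for the last step. As ratios these medians were 1.76, 1.62, 1.29 and 1.12. A median of 40.1% of the whole log2 difference between A and E lay between A and B, 35.5% between B and C, 17.4% between C and D and 7.78% beyond D. The largest step was A to B for 52 members, B to C for 35, C to D for 6 and D to E for 0. The eggs differed in this. In egg 10 the largest step was B to C for 48 members and A to B for 33, whereas A to B led in egg 18, with 54 against 35, and in egg 20, with 49 against 26. The largest step was A to B in each of the 3 eggs for 26 members and B to C in each egg for 14. With libraries scaled by the factor behind the authors' deposited signal or by the added spike-in RNA, B to C was the step with the largest median, at 0.89 and 1.03, against 0.52 and 0.60 from A to B.

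**Figure D3:**
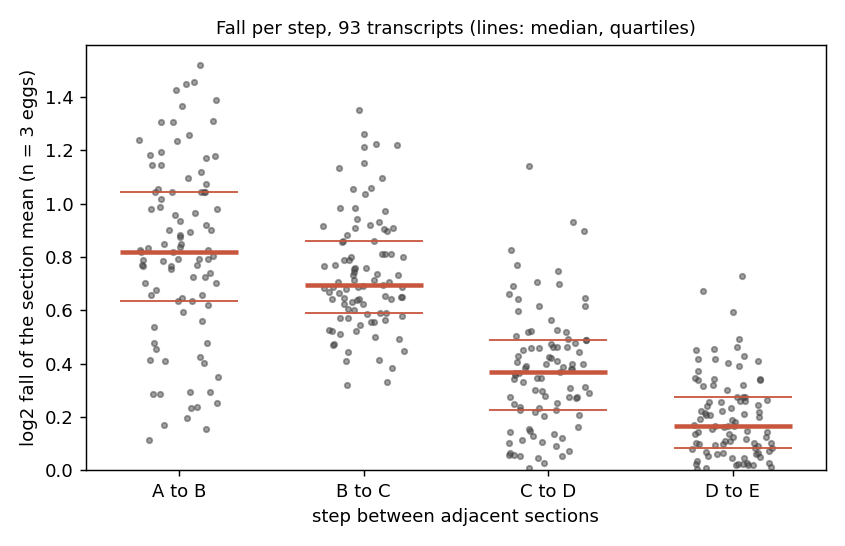
Log2 difference between the means of adjacent sections (n = 3 eggs) for each of the 93 members, by step, with the median as a thick line and the quartiles as thin lines. The medians are 0.82, 0.70, 0.37 and 0.17, and the points of the last step reach down to near 0.

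Members differed in where the decline lay. In trinitytrinLocDN51311c1g1t4, 69.9% of the log2 difference lay between A and B. It stood at 83.0, 158 and 174 CPM in section A of eggs 10, 18 and 20, at 44.3, 52.7 and 54.1 CPM in B, and at 30.7, 35.6 and 31.5 CPM in E. In trinitytrinLocGG_62492c1g1t1 that share was 69.5%, with 104 ± 11.8 CPM in A and 44.1 ± 1.87 CPM in B (SD, n = 3).

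The opposite form was trinitytrinLocGG_29659c2g1t15, where 7.13% of the log2 difference lay between A and B. It stood at 581, 416 and 655 CPM in section A of eggs 10, 18 and 20 and at 626, 242 and 601 CPM in B. Section C gave 392, 120 and 488 CPM, section D 218, 73.0 and 234 CPM and section E 149, 36.6 and 131 CPM. Egg 18 was the lowest in every section, and in egg 10 section B was above section A. In trinitytrinLocDN53901c0g4t1, described above, the share was 7.87%.

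The tests of sections use the contrast that chose the members, so their counts are printed beside those of all transcripts and nothing is read from them. In edgeR's quasi-likelihood test with the egg as a block and Benjamini-Hochberg adjustment at 0.05, 93 of 93 members differed between sections, against 31.9% of 29102 transcripts. All 93 were higher in A than in E, against 17.6% of transcripts. For adjacent sections, 72 members were higher in A than in B, against 2.65%, and 74 were higher in B than in C, against 2.85%. With TMM the vegetal steps had few calls, with 13 members higher in C than in D, against 0.505%, and 0 higher in D than in E, against 0.0137%. For that last step 19 members were higher in D with an unadjusted p under 0.05 in edgeR, as were 3.14% of all transcripts. DESeq2 called 0 members. These counts turned on the scaling. With the deposited factor, 91 members and 9866 of all transcripts were higher in C than in D, and 45 members and 3514 of all transcripts higher in D than in E. With the spike-in, 93 members and 12452 of all transcripts were higher in C than in D, while the members higher in A than in B were 30, with 285 of all transcripts. Without the egg as a block the counts for the 4 steps were 36, 28, 0 and 0 members, with 299, 208, 7 and 0 of all transcripts. The 13 calls from C to D became 0 without egg 20, without section D of egg 18 or without section C of egg 20, and 28 without section A of egg 10. Over all transcripts the calls for this step went from 147 to 14 without egg 20 and to 259 without section A of egg 10.

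The libraries can also be set side by side without a model. These are again the values that chose the members, so the counts are a description and nothing is read from them. Every library of section A lay above every library of section E for 93 of 93 members, against 18.2% of transcripts tested. Section A lay wholly above B for 70 members, against 6.78%, and B wholly above C for 61, against 7.88%. Section C lay wholly above D for 10 members, against 3.02%, and D wholly above E for 1, against 2.10%. The rule fixed the order of section means, and single eggs followed it in part. The level was lower at every step in 64 members in egg 10, 71 in egg 18 and 54 in egg 20. In 32 members this held in each of the 3 eggs and in 7 in none. Of the 9348 transcripts of the same abundance, 734, 1039 and 613 were lower at every step in eggs 10, 18 and 20.

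Single eggs left the order at every step except B to C, and most often from D to E. In egg 10, 84 members were higher in A than in B, against 93 in egg 18 and 91 in egg 20. All 93 were higher in B than in C in each egg. In eggs 10, 18 and 20, section C exceeded D for 88, 80 and 84 members, and D exceeded E for 77, 84 and 64. Of the 9348 transcripts of the same abundance, A exceeded B for 4897, 4535 and 4525 in the same order of eggs. B exceeded C for 4832, 4924 and 4876 of them, C exceeded D for 5111, 4347 and 4226, and D exceeded E for 3804, 5251 and 4541. The members' counts come from the values that chose them and are a description.

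The rule took means over the 3 eggs and set no condition on differences between eggs. Each egg's values still entered those means, so the egg comparison is not separate from the choice. Without egg 18, 61 of the 93 met the rule. The decline was steepest in egg 18 for 73 of the 93 members, in egg 20 for 17 and in egg 10 for 3, by the slope of log2(CPM + 0.5) on section order. It was shallowest in egg 10 for 73, in egg 20 for 19 and in egg 18 for 1. The median log2 ratio of A to E was 1.72 in egg 10, 2.54 in egg 18 and 2.17 in egg 20. Over the 9348 transcripts of the same abundance these medians were -0.01, 0.03 and -0.01, and the slope was most negative in egg 10 for 3737, in egg 18 for 3255 and in egg 20 for 2356.

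The difference in slope between eggs was tested in edgeR with an egg-specific linear term added to section and egg. It passed for 7 of 93 members after Benjamini-Hochberg adjustment over all transcripts, against 0.326% of 29102 transcripts, and 59 members had an unadjusted p under 0.05, as did 13.2% of all transcripts. Of the 7, 6 were steepest in egg 18 and 1 in egg 20. The model leaves 6 residual degrees of freedom, and the count rests on single libraries: it was 0 without section E of egg 18 and 24 without section C of egg 18. It was also 0 without egg 10, 2 without egg 20, and 1 to 4 without section A, B or D of egg 10, A or B of egg 18, or A, B or E of egg 20. Without egg 18 it was again 7, of which 2 were among the 7 called with all eggs. The calls over all transcripts moved as well, from 95 with every library to 227 without egg 18 and 24 without egg 20. They were 0 without egg 10 and 423 without section C of egg 18. DESeq2 called 27 members and 313 of all transcripts.

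The smallest p of this test belonged to trinitytrinLocGG_844c0g1t1, whose log2 ratio of A to E was 2.78 in egg 10, 4.17 in egg 18 and 2.82 in egg 20. Its adjusted p was 0.00435 in edgeR with Benjamini-Hochberg adjustment, and 0.0728 without section E of egg 18. Next was trinitytrinLocDN47933c0g2t1, at 80.1, 90.0 and 137 CPM in section A of eggs 10, 18 and 20 and 31.5, 7.55 and 28.0 CPM in section E. Its level in egg 18 was close to egg 10 at the animal pole and far below both other eggs at the vegetal pole. Its adjusted p was 0.016 in edgeR with Benjamini-Hochberg adjustment, and the call ended without section A or D of egg 10 (0.172 and 0.0629) or section A or E of egg 18 (0.151 and 0.0867). Without egg 10 the adjusted p of these 2 members was 0.0691 and 0.237, and without egg 18 it was 0.946 and 0.2.

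**Figure D4:**
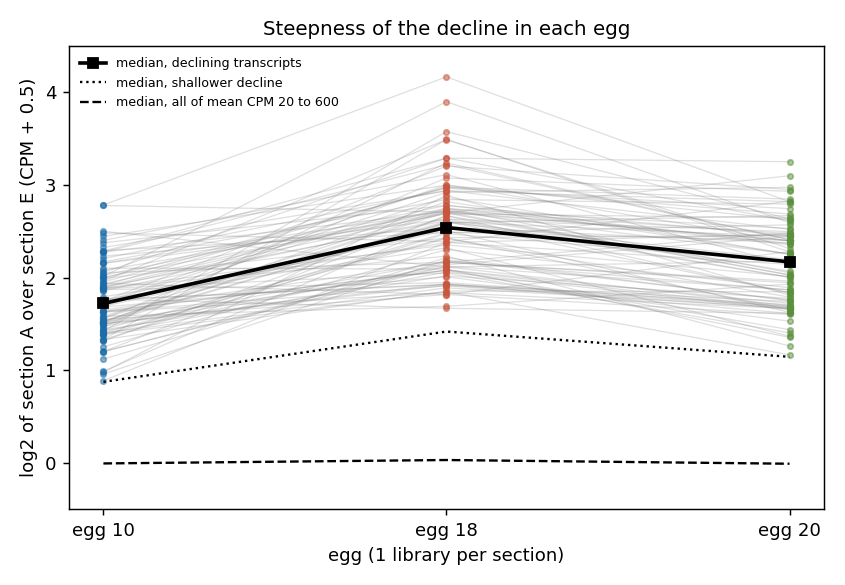
Log2 ratio of section A to section E, from CPM + 0.5, for each of the 93 members in each egg. Grey lines join a member's 3 values, squares are medians (1.72, 2.54 and 2.17), the dotted line is the median of the 374 shallower declining transcripts and the dashed line that of the 9348 transcripts of the same abundance, which stays near 0.

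Other graded transcripts were compared egg by egg. In the 374 transcripts of the same abundance that were lower at every step with 50% to below 60% in A plus B, 244 were steepest in egg 18 and the median log2 ratios of A to E were 0.88, 1.42 and 1.14. In the 15 with at least 75% in A plus B, the medians were 2.67, 3.74 and 3.37 and 8 were steepest in egg 18. In the 203 that were higher at every step with 60% to below 75% in D plus E, the rise was steepest in egg 10 for 92, in egg 18 for 68 and in egg 20 for 43, with medians of -2.57, -2.40 and -2.37. The slope test passed for 4 of the 374, 2 of the 15 and 2 of the 203. Whether these groups differ from the 93 was not tested.

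The level averaged over the 5 sections was compared between eggs as well. This average is not an amount per egg. Low vegetal sections lower it, so it is not separate from the slope. The egg term of the model passed for 64 of 93 members (68.8%) in edgeR with Benjamini-Hochberg adjustment, against 42.2% of all transcripts and 55.0% of the 9348 of the same abundance. It passed for 64.4% of the 374 shallower and 66.7% of the 15 steeper declining transcripts. Whether these shares differ was not tested. The geometric mean over the 5 sections was highest in egg 10 for 48 members, in egg 20 for 36 and in egg 18 for 9. Among the 9348 transcripts egg 18 was the highest for 4026. In the sets most like the members it was seldom the highest, at 63 of the 374 shallower and 1 of the 15 steeper declining transcripts. The shallower ones were highest in egg 10 for 209 and in egg 20 for 102, and the steeper ones for 4 and 10. Without egg 18 the egg term passed for 24 members and 5798 of all transcripts, against 64 and 12286 with every egg. Without egg 10 it passed for 53 members and 3711 of all transcripts, and without egg 20 for 54 and 11417. Of the 7 members whose slope differed, 6 also passed the egg term, as did 64 of all 93. Both tests use the same libraries.

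The member with the smallest p for level went against that order. trinitytrinLocDN47110c1g1t1 had a geometric mean of 17.0 CPM in egg 10, 31.9 CPM in egg 18 and 28.9 CPM in egg 20, and its log2 ratio of A to E was nearly the same in the 3 eggs, at 1.77, 1.67 and 1.61. Its adjusted p was 1.04e-06 in edgeR with Benjamini-Hochberg adjustment, and 0.32 without egg 10. The next was trinitytrinLocGG_29659c2g1t15, at 342, 127 and 359 CPM, with an adjusted p of 4.84e-06 in the same test and 0.458 without egg 18. In that member egg 18 was low in every section, while in trinitytrinLocDN47110c1g1t1 egg 10 was low in every section.

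The rule was also applied to 2 eggs at a time, and the decline was read in the egg left out. The thresholds were set with earlier results of all these eggs known, so the egg left out is not independent of the rule. The counts are therefore a description. They are given with TMM scaling, and the split was not run with the deposited factor or the spike-in. With eggs 18 and 20 choosing, 120 transcripts met the rule, 73 of them among the 93. In egg 10, 119 of these 120 were higher in A than in E and 71 were lower at every step. With eggs 10 and 20 choosing, 82 met the rule, and in egg 18 all 82 were higher in A than in E and 52 were lower at every step. With eggs 10 and 18 choosing, 90 met the rule, and in egg 20 all 90 were higher in A than in E and 51 were lower at every step.

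For transcripts of the same abundance in the choosing eggs, 52.5% were higher in A than in E in egg 10, 49.8% in egg 18 and 49.1% in egg 20. The level was lower at every step for 9.45, 10.4 and 6.52% of them. The rule chose transcripts with a high share of A plus B. Such a transcript can leave the rule's range of that share while A stays above E. The counts for the range are therefore not compared with those for A above E. The share of A plus B in the egg left out is given as a description. In egg 10 it lay between 60 and 75% for 43 of 120 transcripts and below 60% for 77. In egg 18 it lay in that range for 59 of 82 and at or above 75% for 20, and in egg 20 it lay in that range for 65 of 90, below it for 15 and above it for 10.

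The order of sections and the size of the excess of A over E depended on the scaling. Its direction stayed the same, but the rule had chosen members with a high level in A. The deposited factor and the spike-in also move all transcripts toward A, with median log2 ratios of A to E of 0.53 and 0.48 over all tested transcripts. Under TMM, DESeq2 size factors, total counts, the deposited factor and the spike-in, all 93 members had a higher mean in A than in E. The median log2 ratio of A to E was 2.09 with TMM, 2.68 with the deposited factor and 2.60 with the spike-in. With the factor behind the authors' deposited signal, 11 members were highest in section B, and 82 kept a lower level at every step. With the spike-in, 5 were highest in B, D was above E for 33 of 93, and 29 kept the order. The median log2 difference from A to B was 0.82 with TMM, 0.52 with the deposited factor and 0.60 with the spike-in. The median for C over D was 0.37, 0.76 and 0.98 in the same order, and for D over E 0.17, 0.47 and -0.06.

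Those 2 scalings shift all transcripts of a library together. The median of all tested transcripts from A to B was -0.28 with the deposited factor and -0.20 with the spike-in, against -0.01 with TMM. Taken relative to that median, a factor per library largely cancels, so close values are built in and do not decide between scalings. The members' relative median from A to B was 0.82 with TMM, 0.80 with the deposited factor and 0.81 with the spike-in. From D to E the members' median relative to all transcripts was 0.17, 0.21 and 0.13. The number of transcripts that met the rule was 263 with the deposited factor, 68 of them among the 93, and 65 with the spike-in, 22 of them among the 93.

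**Figure D5:**
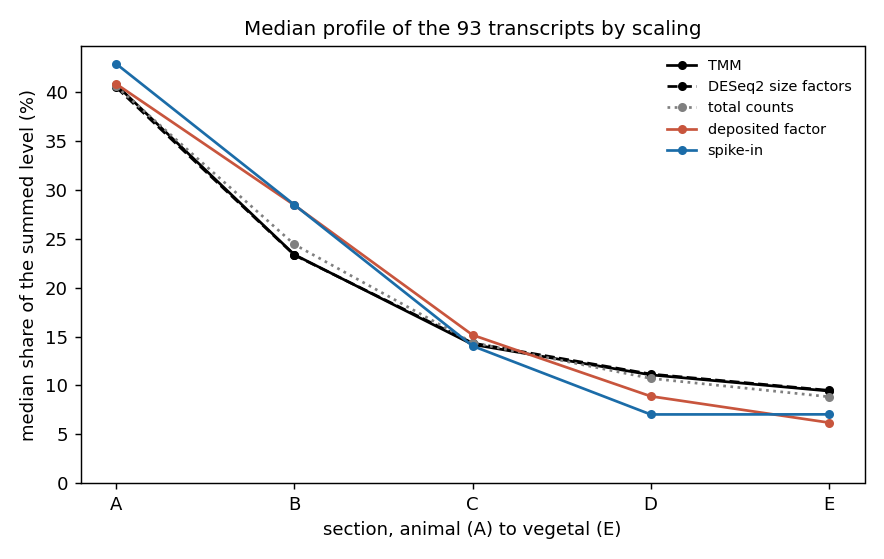
Median share of the summed level in each section over the 93 members under 5 scalings, in percent on an axis from 0. The share in section A lies between 40.5 and 42.9% under each scaling, while the deposited factor and the spike-in give more to section B and less to D and E.

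The IDs show little sharing among the members, and how common that is over all transcripts is not given here. The 93 came from 92 assembled genes in 92 components, the groups into which the assembler sorts related sequences. Of the members, 16.1% came from the genome-guided form of ID (GG), against 17.7% of the 9348 transcripts of the same abundance. The 1 gene with 2 members gave trinitytrinLocDN54539c0g1t4, at 123 CPM in section A and 21.0 CPM in E, and trinitytrinLocDN54539c0g1t3, at 54.5 CPM in A and 9.47 CPM in E. Both followed the same order of sections in each egg, and reads shared between transcripts of 1 gene may have been divided between them by the counting.

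Few other transcripts of these genes were listed. There were 4, of which 2 had a mean of at least 1 CPM, and both were higher in A than in E. One of them, trinitytrinLocDN54519c1g1t1, stood at 14.1 CPM in section A, 5.18 CPM in B, 3.35 CPM in C, 2.92 CPM in D and 2.54 CPM in E. It is a low partner of the abundant trinitytrinLocDN54519c1g1t3 and had 68.6% in A plus B, against 65.7%. The other, trinitytrinLocDN55038c0g5t4, had 39.6% in A plus B, while the member of its gene had 69.5%. Of 22 transcripts of at least 1 CPM from another gene of the same components, 17 were higher in A than in E. At least 2-fold differences were found in 10 with A higher and 1 with A lower. Among all 26699 other transcripts of at least 1 CPM, 51.5% were higher in A than in E. At least 2-fold differences were found in 2073 of these with A higher and 2393 with A lower.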

How the data were processed

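The authors deposited whole-number counts per assembled transcript for each library and a normalized signal, which equals those deposited counts divided by 1 number per library (relative range of the ratio at most 9.8e-10 above 50 counts). Trimmomatic, STAR 2.5.2b, kallisto and DESeq2 were used upstream, per the submitters' processing notes, which assign no roles here. No source used here names the assembly. The spike-in line, 0.0115 to 0.0235% of counts, stayed out of library sizes and tests.

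Members were found with TMM-scaled CPM over all 42878 transcripts. Tests used edgeR 4.0.16 (glmQLFit, glmQLFTest) in R 4.3.3 on counts of the 29102 transcripts kept by filterByExpr, scaled again with TMM, with section and egg as terms, 8 residual degrees of freedom and Benjamini-Hochberg adjustment at 0.05. The slope test added an egg-specific linear term. DESeq2 1.42.0 was an alternative. The fits were tried on simulated counts with 1 spread for all transcripts and no difference in level between eggs, unlike these data. The egg test of level was therefore not checked by them. Logs per library used CPM + 0.5.

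The 5 sections of an egg are pairs by construction: deviations from section means correlated at 0.264 to 0.743 within an egg and at -0.759 to 0.310 between eggs. Counts of the same section in different eggs gave chi-square values of 4.77 to 27.2 relative to their degrees of freedom, above sampling noise. Transcripts were named by level, ratio of A to E, distance from a threshold, share of the decline from A to B, and smallest p of the egg tests. The members, comparisons and naming rule were chosen with earlier results of these data known. Alternatives were other scalings, filters, gene sums, the DESeq2 test, no egg block, and leaving out each egg or library.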

Additional observations from a re-analysis of the deposited data

Results flagged for a closer look

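For 7 of the 93 members the slope along the axis differed between eggs, by the test of that difference itself (edgeR with Benjamini-Hochberg adjustment over all transcripts). The same test passed for 0.326% of all transcripts and 0.653% of those of the same abundance, and the count of members was 0 without section E of egg 18 or without egg 10. Without egg 10 it passed for 0 of all transcripts too. The adjusted p was 0.00435 for trinitytrinLocGG_844c0g1t1 and 0.016 for trinitytrinLocDN47933c0g2t1, both steepest in egg 18. For the other 5 it was 0.0278, 0.028, 0.0361, 0.0386 and 0.0459 in edgeR. The eggs are replicates of 1 kind, and what differs between them was not tested.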

How the results depend on the processing

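Higher in A than in E, a contrast that chose the members, was called for all 93 under every alternative run on transcripts. It was called for all 92 of their genes when counts were summed per assembled gene. Values of the named transcripts under alternatives kept the direction and the call 401 times, lost a call of an egg test 11 times and reversed 0 times. Most of these values are ratios of A to E, which the rule had made high, and an egg test has no direction to reverse. With the deposited factor, 263 transcripts met the rule, and 91 members were higher in C than in D and 45 in D than in E, as were 9866 and 3514 of all 29102 transcripts. With the spike-in, 30 members were higher in A than in B and 93 in C than in D, 40 differed between eggs and 52 in slope. Over all transcripts these counts were 285, 12452, 6825 and 1861. Total counts and the DESeq2 test gave 21 and 20 members higher in C than in D, with 225 and 210 of all transcripts. The slope count was 14 with no low-count filter, 11 with a mean of at least 20 CPM and 27 with DESeq2. Over all transcripts it was 212, 91 and 313 in the same order. Asking for a lower level at every step in each egg left 32 members. Without the egg as a block, any section difference was called for 92 members and 4580 of all transcripts. The steps were then called for 36 (A to B), 28 (B to C), 0 (C to D) and 0 (D to E) members. Over all transcripts those steps were called for 299, 208, 7 and 0. The cause was not tested.

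Leaving out an egg or a library gave 57 (without section E of egg 18) to 120 members, 47 to 81 calls from A to B, 49 to 88 from B to C, 0 to 28 from C to D, 0 to 2 from D to E, 24 to 76 between eggs and 0 to 24 in slope. Over all transcripts the calls moved too, at 307 to 1140 from A to B and 330 to 1175 from B to C. They were 14 to 259 from C to D, 0 to 24 from D to E and 3711 to 13359 between eggs. Any section difference stayed at 93. From C to D the count of members was 5 without egg 18, where 45 of all transcripts were called. It was 3 to 8 without section C or D of egg 10 or B or D of egg 20, and 20 without section A of egg 18. From D to E the count of members was 2 without section A of egg 10, with 24 of all transcripts, and 1 without section A of egg 18. Over all transcripts, higher in A than in E was called for 5132 transcripts, by the deposited factor for 15981, by the spike-in for 10381 and without the block for 2754. Higher in C than in D was called for 147 transcripts, by the spike-in for 12452 and without the block for 7. The slope test called 95 transcripts, 1861 with the spike-in, 313 with DESeq2, and 0 to 423 without an egg or a library. The egg term called 12286, 6825 with the spike-in and 3711 without egg 10. The 73 members steepest in egg 18 numbered 71 to 93 under the other scalings and 51 to 79 without a section, alternatives chosen after seeing the data. With 1 library per section and egg, an egg difference cannot be told apart from a difference between libraries or between cuts of the segments.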
